A study of Homo sapiens with 6 samples.

Results

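To study whether the machinery that writes, erases and reads chromatin marks changed when the ETV6/RUNX1 fusion was silenced, the probes of 39 epigenetic regulators were followed on 6 arrays. The list was drawn up by gene function, with earlier results of these data known. Their probes are the catalogue probes whose RefSeq accession belongs to one of them. A matching probe was found for 37 of the 39 genes, out of 19717 genes named on the array, and none was matched for TET3 or EED. Together the 37 genes had 62 probes, of which 61 passed the filter against the negative controls. The remaining probe, the second one of HDAC9, did not pass. By the scanner's own flag, a separate measure, it was well above background on 1 of 3 control arrays and on 0 of 3 knockdown arrays. The 61 probes fall into DNA methylation (11 probes of 5 genes), histone methylation (28 probes of 15 genes), acetylation (13 probes of 10 genes) and remodelling and chromatin structure (9 probes of 7 genes).

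All arrays hold total RNA of REH cells, an established human line of acute lymphoblastic leukemia with a B-cell precursor phenotype. Both groups carry the ETV6/RUNX1 fusion, and the study states that the line has lost its other ETV6 allele. In the knockdown group (n = 3) the cells received a short hairpin RNA (shRNA) against the ETV6 portion of the fusion, and in the control group (n = 3) a non-targeting shRNA. Per the methods, the latter is a second ETV6 hairpin that leaves the fusion untouched, and transduced cells were sorted on GFP carried by the vector. Replicates are numbered 1 to 3 in each group, and the study calls them biological. This is bulk RNA of a single line under 1 hairpin per group, so a smaller share of cells with a transcript and less transcript per cell cannot be told apart, nor can the hairpin's effect be separated from that of the fusion.

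DNA methyltransferases (DNMT) add methyl groups to cytosine and TET enzymes oxidise them. Histone marks are set by methyltransferases such as the Polycomb enzymes EZH1 and EZH2 or the KMT2 and NSD families, and removed by KDM demethylases. Acetyl groups are added by CREBBP and EP300 and removed by histone deacetylases (HDAC) and sirtuins, while SWI/SNF complexes move nucleosomes. Several of these genes, among them CREBBP, NSD2, SETD2 and CTCF, are known mutation targets in acute lymphoblastic leukemia. The repressive activity of ETV6 and of its fusion is known to involve co-repressors that bring histone deacetylases.

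First, the target and the arrays were examined. The retained ETV6 probe stood at 7.92, 8.05 and 8.37 on control arrays and at 7.50, 7.46 and 7.29 on knockdown arrays, on the generalised log2 intensity scale used throughout. Its log2 fold change, always knockdown over control here, was -0.70 ± 0.14 (SE, n = 3 per group) with a limma adjusted p of 0.0513, just short of the threshold of 0.05, and the groups did not overlap. The 5 RUNX1 probes had log2 fold changes from -0.26 to 0.03. Where on the fusion transcript these probes lie was not examined. Across arrays, 45.7% to 51.0% of probes were well above background, with the lowest share on control replicate 3, and no spot was saturated. B-cell precursor markers were detected for 11 of 12 genes. All 6 arrays share 1 slide and 1 scan. Control replicates 1 and 2 lie on one slide row and the other 4 arrays on the other, so a fit with the row as a term rests on control replicate 3 alone for its control level.

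None of the 61 probes of epigenetic regulators was called at an adjusted p under 0.05, against 1.74% of all 27490 retained probes (478 probes, with 352 or 1.28% lower and 126 or 0.458% higher). The log2 fold changes ran from -0.48 for DNMT3A to 0.48 for HDAC6, and 33 probes were below 0 and 28 above. Their median was -0.03, beside -0.0015 over all retained probes. At an unadjusted p under 0.05, 11 of 61 probes passed, against 12.5% of all probes. In 19 of 61 probes the 3 control values did not overlap the 3 knockdown values, against 18.9% of all probes. Of the 19, 13 were lower in knockdown (9.87% of all probes) and 6 higher (9.02% of all probes). Knockdown was below control in all 3 same-numbered pairs for 18 probes (21.4% over all probes) and above it in all 3 for 13 probes (20.8% over all probes).

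The fit also bounds the size of these differences. The 95% interval of the fold change lay within 2-fold in either direction for 60 of 61 probes, against 95.1% of all probes, and the exception was CTCF. It lay within 1.5-fold for 52 probes, against 78.8% of all probes. The plot of fold changes shows these intervals by class.

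Scaling the arrays to their spike-in probes moved the median of all retained probes to a log2 fold change of 0.25, and 56 of 61 regulator probes were then above 0, against 90.7% of all probes. The regulators' own median became 0.28, and 28 of the 33 probes below 0 turned positive, among them KDM5B, BMI1, KMT2A and HDAC7. The ETV6 probe was at -0.32 under that scaling.

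**Figure D1:**
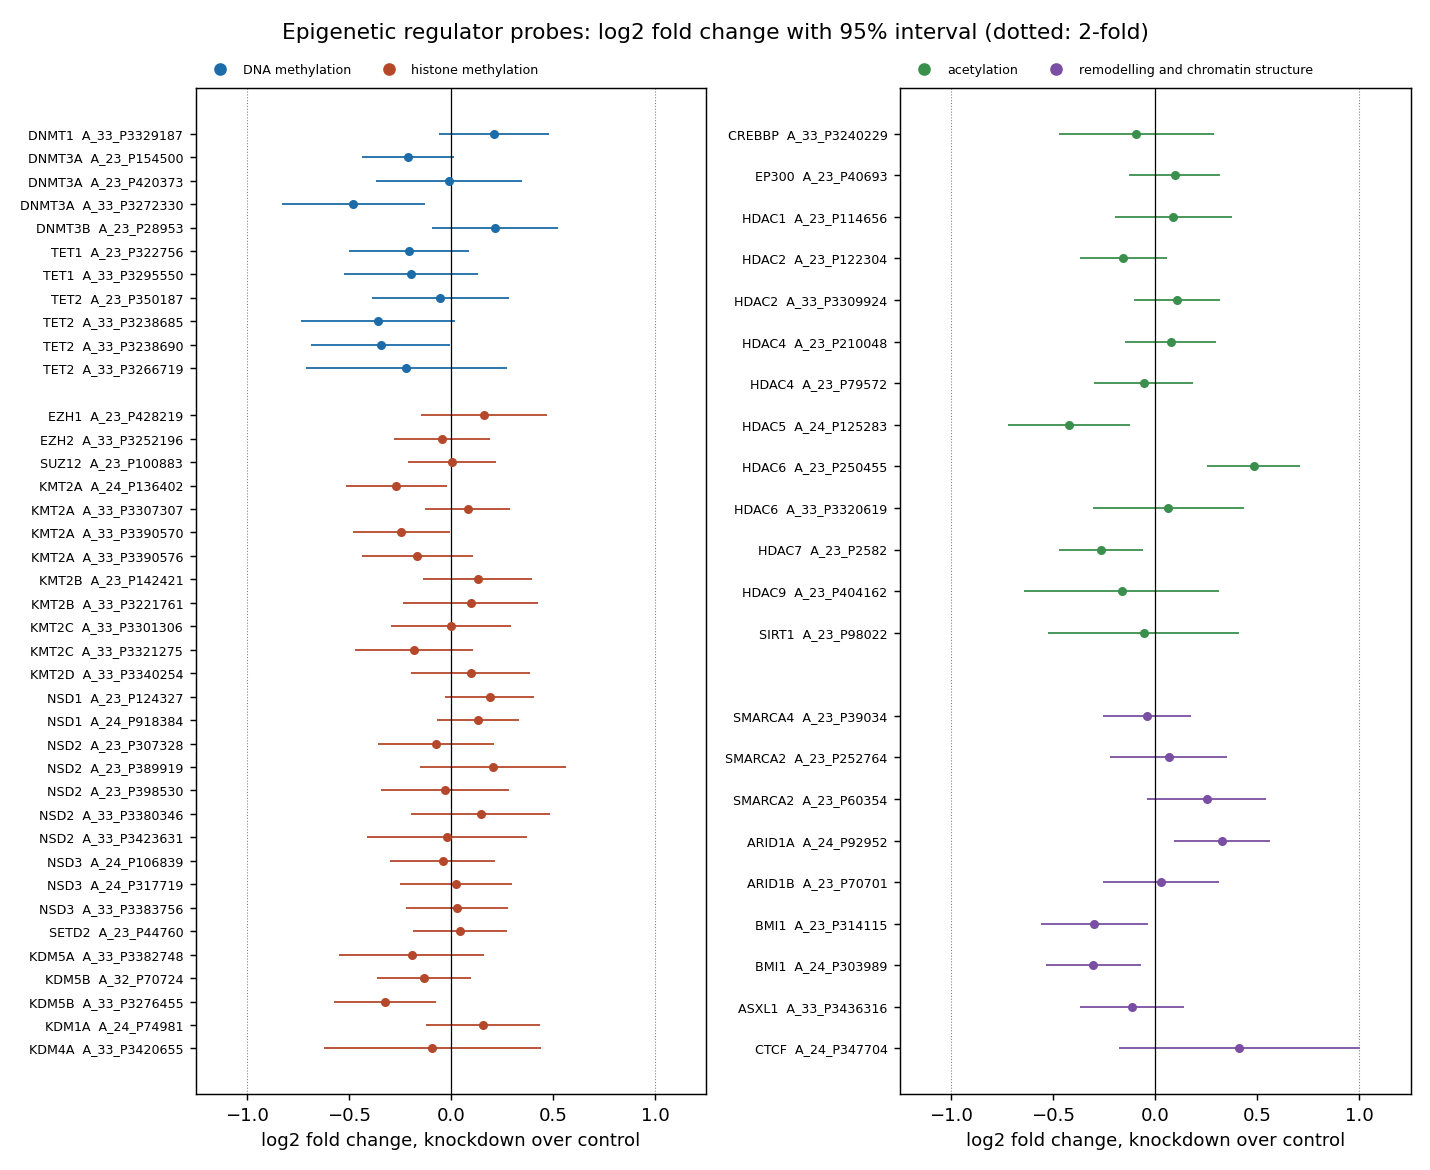
Log2 fold change (x axis, knockdown over control) of each of the 61 retained probes of epigenetic regulators, by gene and probe name (y axis), with the 95% interval of the limma fit on 3 arrays per group. Points run from -0.48 to 0.48, and only the interval of CTCF, with an upper end of 1.00, reaches the dotted line of 2-fold.

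Samples with the same replicate number deviated together, though only replicate 1 stood clearly apart, so the replicate number was also fitted as a block. The pairing was taken from these same data. With the block, 2 of 61 probes were called, against 3.79% of all retained probes. One was higher, a probe of HDAC6 (1.36% of all probes were called higher), and the other lower, a probe of DNMT3A (2.43% were called lower). In both genes another probe was close to 0. That of HDAC6 was dim, with a control mean of 6.50. That of DNMT3A was matched to another RefSeq transcript than the gene's other probes.

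HDAC6 encodes a mostly cytoplasmic deacetylase that acts on tubulin. Its probe A_23_P250455 read 11.01, 10.88 and 10.91 on control arrays and 11.52, 11.35 and 11.38 on knockdown arrays. Every knockdown array was above every control array, by more than the spread within either group. The log2 fold change was 0.48 ± 0.10 (SE), a 1.40-fold difference with a 95% interval from 0.25 to 0.71, and the limma adjusted p was 0.0619 without the block and 0.0359 with it. Over 16 alternative settings the adjusted p ran from 0.0355 to 0.379, and 3 of them called the probe. Under spike-in scaling the value was 0.83. The other HDAC6 probe, A_33_P3320619, read 6.43, 6.57 and 6.50 in control and 6.33, 6.43 and 6.93 in knockdown, with overlapping groups and a log2 fold change of 0.06 ± 0.16. Averaged over both probes, the HDAC6 log2 fold change was 0.27 with an adjusted p of 0.317.

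DNMT3A encodes a de novo DNA methyltransferase and is a frequent mutation target in myeloid neoplasms. Its probe A_33_P3272330 read 12.52, 12.18 and 12.11 on control arrays and 12.01, 11.79 and 11.58 on knockdown arrays. The groups did not overlap, but within each of them replicate 1 was highest and replicate 3 lowest, and the 3 same-numbered differences were -0.52, -0.39 and -0.53. The log2 fold change was -0.48 ± 0.15 (SE), with a 95% interval from -0.83 to -0.13, an adjusted p of 0.229 without the block and 0.0405 with it. A second probe, A_23_P154500, had a log2 fold change of -0.21 ± 0.10 with groups that did not overlap, and a further one, A_23_P420373, of -0.01 ± 0.15 with overlapping groups. The average over the 3 probes was -0.23 with an adjusted p of 0.492. The value of the first probe was -0.11 under spike-in scaling and -0.32 with the slide row as a term.

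Since these genes carried the only calls, their promoters are shown, beside those of ASXL1 and HDAC4, the only regulators with a match to both motifs searched. The sequences are the 250 bases before a transcription start in RefSeq (GRCh38.p14), read 5' to 3' on the gene's strand. Of 39 genes, 37 had promoters in that table, 70 in all, as several genes have more than 1 start, and HDAC5 and NSD3 had none. The motifs were the RUNX core TGTGGT and the ETS core CCGGAAG, each searched on both strands, and they share no overlap in the matches shown. Capitals mark a match, and a match on the opposite strand appears as ACCACA or CTTCCGG. The HDAC6 window shown lies at chrX:48801817-48802066 on the plus strand and the DNMT3A window at chr2:25342484-25342733 on the minus strand. The ASXL1 window lies at chr20:32358081-32358330 on the plus strand and the HDAC4 window at chr2:239267515-239267764 on the minus strand.
HDAC6: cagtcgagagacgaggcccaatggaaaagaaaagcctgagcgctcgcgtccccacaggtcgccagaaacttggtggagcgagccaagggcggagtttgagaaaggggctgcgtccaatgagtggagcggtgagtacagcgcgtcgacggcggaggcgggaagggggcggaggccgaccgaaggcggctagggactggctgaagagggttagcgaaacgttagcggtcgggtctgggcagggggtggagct
DNMT3A: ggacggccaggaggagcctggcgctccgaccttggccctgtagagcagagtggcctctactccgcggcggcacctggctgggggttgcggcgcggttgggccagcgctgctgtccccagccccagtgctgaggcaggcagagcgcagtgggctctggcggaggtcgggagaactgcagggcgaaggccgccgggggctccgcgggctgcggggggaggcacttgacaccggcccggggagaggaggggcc
ASXL1: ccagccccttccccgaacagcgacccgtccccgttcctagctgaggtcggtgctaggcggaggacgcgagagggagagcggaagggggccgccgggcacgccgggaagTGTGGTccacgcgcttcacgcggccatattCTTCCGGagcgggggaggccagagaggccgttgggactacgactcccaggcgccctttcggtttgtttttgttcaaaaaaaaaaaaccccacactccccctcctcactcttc
HDAC4: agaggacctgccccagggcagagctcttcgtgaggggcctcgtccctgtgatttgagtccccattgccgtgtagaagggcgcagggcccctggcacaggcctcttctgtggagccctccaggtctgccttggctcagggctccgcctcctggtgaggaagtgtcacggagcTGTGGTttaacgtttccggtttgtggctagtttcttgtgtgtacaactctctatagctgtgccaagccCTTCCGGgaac
These letters were not found in the windows of HDAC6 (3 promoters) or DNMT3A (6 promoters). The RUNX core occurred in 6 of 70 promoters, of ASXL1, HDAC4, SIRT1 and TET1, that is 8.57% against 11% of all 35116 promoters. The ETS core occurred in 4 of 70, of ASXL1, HDAC4 and SMARCA2, that is 5.71% against 8.52%. The log2 fold changes were -0.11 for ASXL1 and 0.07 and -0.06 for the HDAC4 probes, none of them called. A letter match in 250 bases is a description of sequence and not of binding.

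**Figure D2:**
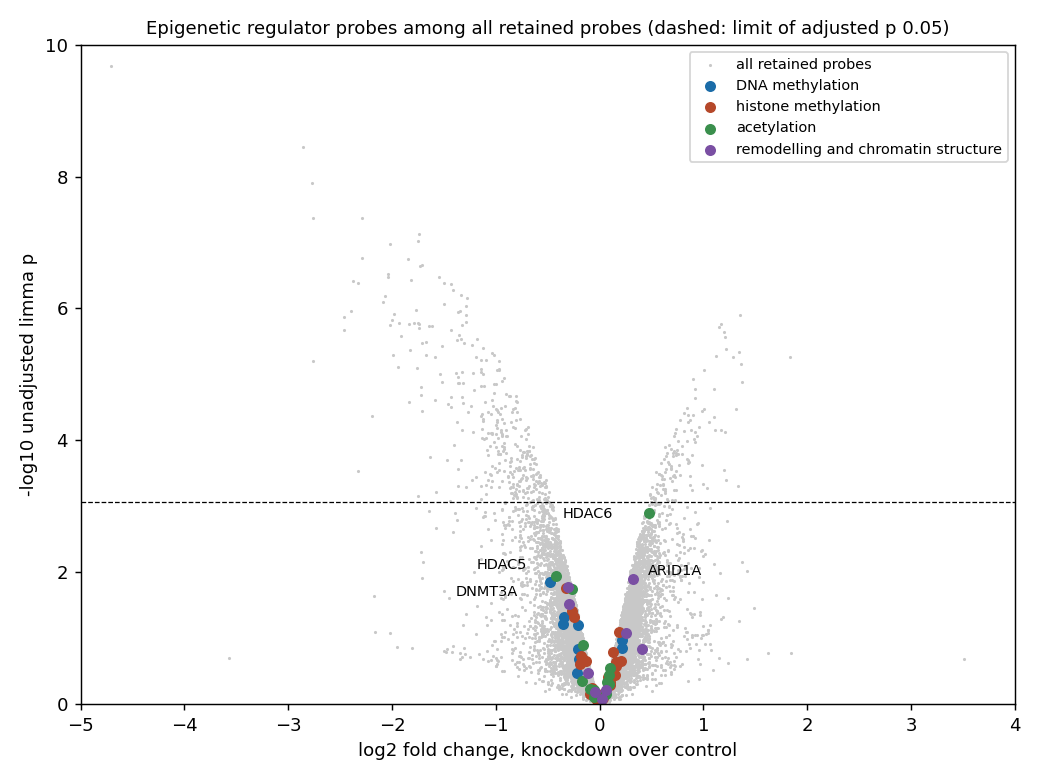
Unadjusted limma p (y axis, -log10) against log2 fold change (x axis, knockdown over control) for all 27490 retained probes (grey) and the 61 probes of epigenetic regulators (coloured by class), from 3 arrays per group. No coloured point lies above the dashed line, which marks an adjusted p of 0.05, and HDAC6 comes nearest to it.

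Next, the DNA methylation class was examined. Of its 11 probes, 9 had a log2 fold change below 0 and 2 above, with a median of -0.21 against -0.0015 over all probes, and 0 were called without the block. Under spike-in scaling 8 of the 11 were above 0, with a median of 0.10 that lay below the 0.25 of all probes. All 4 probes of TET2, which encodes a 5-methylcytosine oxidase, were below 0, from -0.36 to -0.05, but from -0.02 to 0.28 under spike-in scaling. The TET2 probe of lowest p, A_33_P3238690, read 8.15, 7.98 and 7.95 in control and 7.91, 7.76 and 7.38 in knockdown. These groups did not overlap, but knockdown replicate 3 lay apart from the other arrays of its group, and the adjusted p was 0.387. Without that array its value moved from -0.34 to -0.19, and that of probe A_33_P3238685 from -0.36 to -0.18. Probe A_23_P350187 turned to 0.03 without control replicate 1 and to 0.05 without knockdown replicate 2. The TET1 probes were at -0.21 and -0.20, but the first was at -0.11 without control replicate 3 and the second at -0.06 without knockdown replicate 2. Under spike-in scaling they were at 0.10 and 0.003. The only probes of the class above 0 were those of DNMT1, the maintenance methyltransferase, at 0.21 ± 0.12 (adjusted p = 0.516), and of DNMT3B, at 0.22 ± 0.13. Without knockdown replicate 3 these values were 0.12 and 0.08, and under spike-in scaling 0.57 and 0.55. DNMT1 read 11.74, 11.83 and 11.84 in control and 11.84, 12.01 and 12.20 in knockdown, so its groups met at their edges. For DNMT3B, knockdown replicate 3 read 10.55 while the other 5 arrays lay between 10.03 and 10.18.

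Among histone methylation enzymes, 13 of 28 probes were below 0 and 15 above, with a median of 0.003, and 0 were called with or without the block. Of the enzymes and partner of Polycomb repressive complex 2, none was called. EZH2, the main H3K27 methyltransferase of dividing cells, read 13.45, 13.54 and 13.47 in control and 13.30, 13.51 and 13.52 in knockdown. These groups overlapped, and the log2 fold change was -0.04 with an interval from -0.28 to 0.19. SUZ12, its partner in the complex, stood at 0.01 with an interval from -0.21 to 0.22, and EZH1 at 0.16 ± 0.13. Leaving out one array moved EZH1 to between 0.09 (without control replicate 3) and 0.29 (without control replicate 1).

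KDM5B, an H3K4 demethylase, had the lowest p of this class. Its probe A_33_P3276455 read 12.03, 11.97 and 11.93 in control and 11.76, 11.72 and 11.48 in knockdown. Its log2 fold change was -0.32 ± 0.11 (adjusted p = 0.253), and 0.05 under spike-in scaling. Its other probe was at -0.13, and neither probe's groups overlapped. KMT2A, the H3K4 methyltransferase that is rearranged in other leukemias, had 3 probes below 0 and 1 above. Its probe A_24_P136402 read 7.29, 7.29 and 7.30 in control, a spread far below the 7.07, 7.15 and 6.85 of knockdown, and had a log2 fold change of -0.27 ± 0.11 (adjusted p = 0.360), or 0.01 under spike-in scaling. The KMT2A probe above 0, A_33_P3307307, was at 0.08 ± 0.09, and its groups did not overlap either. Probes of this gene thus pointed both ways.

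NSD1, an H3K36 methyltransferase, read 9.93, 10.10 and 9.99 in control and 10.20, 10.16 and 10.23 in knockdown. The log2 fold change was 0.19 ± 0.09 (adjusted p = 0.474), or 0.52 under spike-in scaling. Its groups did not overlap, and its second probe was at 0.13, also without overlap. That second probe was dim, at 5.75, 5.78 and 5.76 in control, and well above background on 2 of 3 control arrays. The 5 probes of its relative NSD2 ran from -0.07 to 0.21 and those of NSD3 from -0.04 to 0.03. The highest NSD2 value became 0.03 without control replicate 1 and -0.002 with the slide row as a term. The remaining methyltransferases KMT2B, KMT2C, KMT2D and SETD2 had values from -0.18 to 0.13. Without knockdown replicate 3 the lowest of these, of KMT2C, became -0.06 and the highest, of KMT2B, 0.04. Among demethylases, KDM5A was at -0.19 ± 0.15, KDM1A at 0.16 ± 0.12 and KDM4A at -0.09 ± 0.23, the last with the widest interval of the class. Each leaned on single arrays. Without control replicate 1 KDM1A was at 0.05 and KDM4A at 0.11, and without control replicate 3 KDM5A was at -0.07. With the slide row as a term KDM1A was at -0.01.

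In the acetylation class, 7 of 13 probes were below 0 and 6 above, with a median of -0.06. The acetyltransferases CREBBP (-0.09 ± 0.16) and EP300 (0.09 ± 0.10) lay close to 0. So did the class I deacetylase HDAC1 (0.09 ± 0.12), while the probes of HDAC2 were at -0.16 and 0.10, with groups that did not overlap in either. HDAC5, a class IIa deacetylase, read 11.16, 10.86 and 10.79 in control and 10.65, 10.40 and 10.49 in knockdown. Each knockdown array was below each control array, and the log2 fold change was -0.42 ± 0.13 (adjusted p = 0.208, and 0.0655 with the block). It was -0.06 under spike-in scaling and -0.27 with the slide row as a term. HDAC7, of the same class, read 11.33, 11.27 and 11.34 in control and 11.02, 11.05 and 11.08 in knockdown, with little spread in either group, and had a log2 fold change of -0.26 ± 0.09 (adjusted p = 0.257), or 0.10 under spike-in scaling. HDAC9, also of class IIa, stood at -0.16 ± 0.21, but at 0.01 without control replicate 1, at -0.37 without control replicate 3 and at 0.25 with the slide row as a term. HDAC4 stood at 0.07 and -0.06. The latter is a dim probe, at 6.45, 6.17 and 6.26 in control, matched to a non-coding RefSeq transcript. None of the class IIa deacetylases was called. SIRT1, a NAD-dependent deacetylase, was at -0.06 ± 0.20.

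Of the 9 probes for remodelling and chromatin structure, 4 were below 0 and 5 above, with a median of 0.03. ARID1A, the DNA-binding subunit of a SWI/SNF complex, read 10.18, 10.14 and 10.06 in control and 10.33, 10.54 and 10.48 in knockdown. The groups did not overlap, and the log2 fold change was 0.33 ± 0.10 (adjusted p = 0.218), or 0.66 under spike-in scaling. SMARCA2, a SWI/SNF ATPase, read 10.36, 10.49 and 10.63 in control and 10.95, 10.61 and 10.67 in knockdown, with overlapping groups and a log2 fold change of 0.25 ± 0.13 (adjusted p = 0.480). Its same-numbered differences were 0.59, 0.12 and 0.04, and replicate 1 was lowest in control but highest in knockdown. The value was 0.15 without knockdown replicate 1, 0.12 with the slide row as a term and 0.59 under spike-in scaling. Its second probe, A_23_P252764, was at 0.06 ± 0.12 with overlapping groups. Its paralog SMARCA4 was at -0.04 ± 0.09, with 15.62, 15.51 and 15.46 in control and 15.51, 15.50 and 15.46 in knockdown. ARID1B stood at 0.03 ± 0.12 and ASXL1, a Polycomb-associated protein, at -0.11 ± 0.11.

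BMI1, a Polycomb repressive complex 1 component known for its role in stem cell self-renewal, had both of its probes at nearly the same value. Probe A_24_P303989 read 8.94, 8.93 and 8.96 in control and 8.67, 8.74 and 8.50 in knockdown, and probe A_23_P314115 read 9.82, 10.16 and 10.03 in control and 9.77, 9.67 and 9.68 in knockdown. Neither probe's groups overlapped. Both log2 fold changes were -0.30, with adjusted p of 0.250 and 0.323, so neither was called, and the first was at 0.03 under spike-in scaling.

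**Figure D3:**
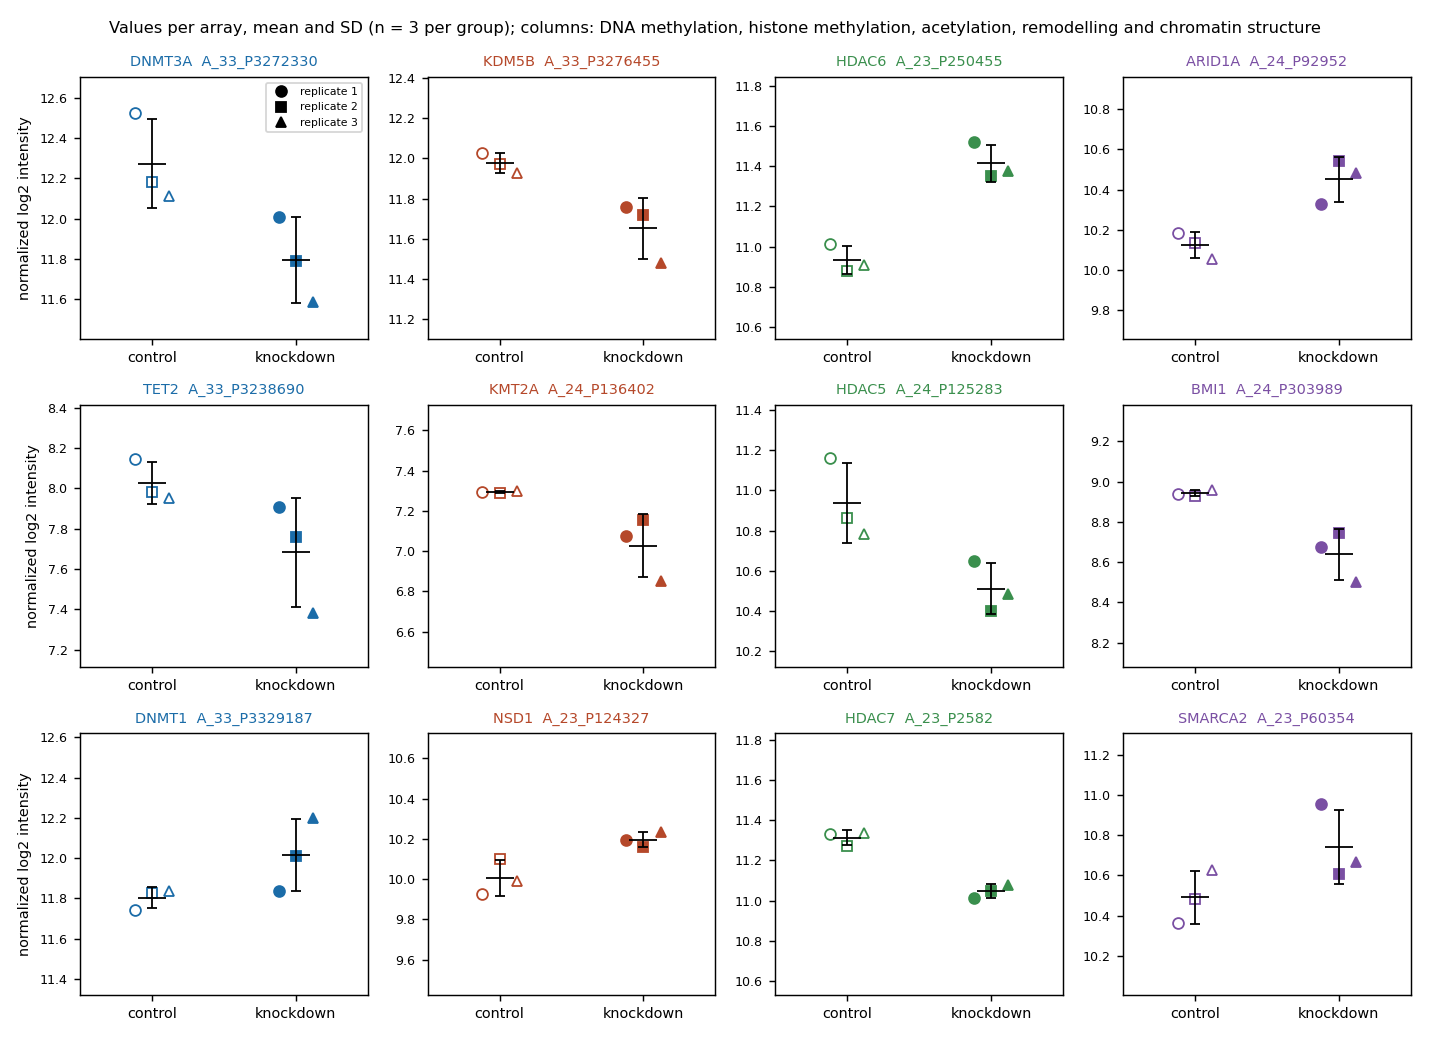
Normalized log2 intensity (y axis, each panel spanning the same range) of the 3 regulators of lowest p in each class, by group (x axis); symbols are arrays, open for control and filled for knockdown, and bars give mean and SD (n = 3 per group). The groups are apart in 10 of the 12 panels and meet or overlap for DNMT1 and SMARCA2, and replicate 1 is highest in both groups for DNMT3A, KDM5B, HDAC5, TET2 and HDAC6.

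Of the 15 genes with several retained probes, 9 had all probes on one side of 0 (BMI1, DNMT3A, HDAC6, KDM5B, KMT2B, NSD1, SMARCA2, TET1 and TET2). The other 6, HDAC2, HDAC4, KMT2A, KMT2C, NSD2 and NSD3, had probes on both sides. Probes of one gene were not compared for level, as probe brightness differs with sequence.

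For several genes the difference between replicates was larger than that between groups. In 23 of 61 probes, replicate 1 differed from the mean of replicates 2 and 3 by more than the group difference in both groups. KDM4A replicate 1 was higher by 0.59 in control and by 0.68 in knockdown, against a group difference of -0.09. HDAC9 showed 0.52 and 0.39, and CREBBP 0.33 and 0.42. NSD2 went the other way, with replicate 1 lowest in both groups on 4 of 5 probes. Replicate 1 was highest in both groups for 19 of 61 probes, against 24.1% of all probes, and lowest for 8, against 20.5%. Genes of the amino acid stress response moved with replicate 1 as well. It was highest in both groups on 13 of 14 of their retained probes. ASNS, an asparagine synthetase, read 14.67, 12.45 and 12.33 in control and 14.42, 12.58 and 12.42 in knockdown. None of the 14 probes was called without the block, and 3 were called higher with it, against 1.36% of all probes. Their part in the replicate differences of the regulators was not tested.

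CTCF, the insulator protein, and SIRT1 had replicate 1 lowest in control but highest in knockdown. Probes of SMARCA2, SUZ12, SETD2 and HDAC2, among others, had the same order, and its share over all probes was not counted. CTCF read 10.69, 10.97 and 11.18 in control and 11.98, 11.06 and 11.05 in knockdown. The log2 fold change was 0.41 ± 0.26 (adjusted p = 0.570). Without knockdown replicate 1 the CTCF value was 0.10. SIRT1 read 10.07, 10.39 and 10.42 in control and 10.65, 10.22 and 9.84 in knockdown, and its value moved from -0.06 to -0.26 without knockdown replicate 1, to 0.14 without knockdown replicate 3 and to 0.01 without control replicate 3. In 23 of 61 probes the sign turned when one array was left out, and these were probes with a log2 fold change of at most 0.16 in size.

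**Figure D4:**
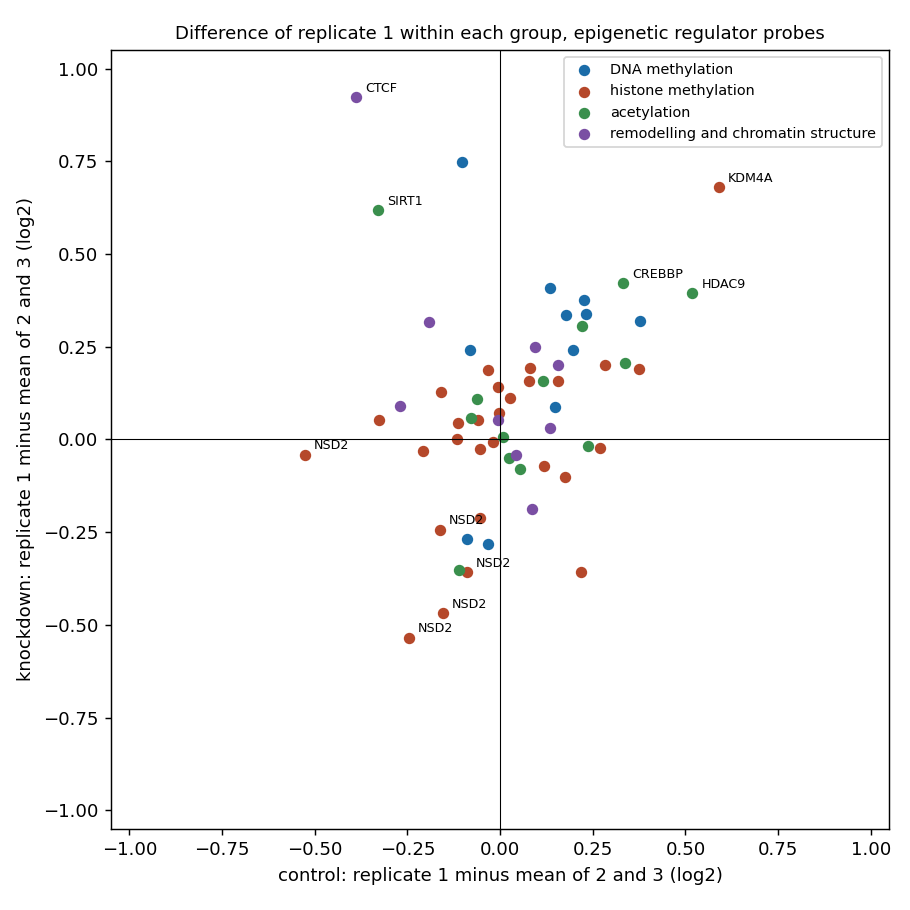
Replicate 1 minus the mean of replicates 2 and 3 on the log2 scale, in control (x axis) and in knockdown (y axis), for the 61 probes of epigenetic regulators coloured by class. KDM4A, HDAC9 and CREBBP lie at the upper right, NSD2 probes mostly at the lower left, and CTCF and SIRT1 at the upper left, where the groups oppose each other.

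Finally, other chromatin genes that belong to the same pathways were examined. A list of 115 such genes had 169 retained probes of 110 genes, of which 73 were below 0 and 96 above with a median of 0.03. It held 1 called probe, against 1.74% of all probes, namely A_24_P942604 of the cohesin subunit SMC1A. It read 7.93, 8.41 and 8.23 in control and 9.14, 9.53 and 9.40 in knockdown. The log2 fold change was 1.17 ± 0.15 (adjusted p = 0.0104), and the groups did not overlap. The call was lost without knockdown replicate 2 (1.08), without knockdown replicate 3 (1.14) and with the slide row as a term (1.13). The other SMC1A probes were at -0.17 and -0.27, and the average over the gene's probes was 0.24. PHF19, a Polycomb-associated protein, had the next lowest p. Its probe A_23_P21436 read 9.60, 10.08 and 9.97 in control and 10.44, 10.92 and 11.05 in knockdown, with a log2 fold change of 0.92 ± 0.19 (adjusted p = 0.0617, and 0.00647 with the block), while its other probe was at 0.05. CBX7, SMARCB1 and ASH1L followed at 0.40, 0.30 and -0.32, none of them called.

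Markers of other cell types were present in part. The filter was passed by 3 of 6 T-cell, 4 of 5 myeloid and 2 of 4 erythroid probes, and the defining markers ELANE and HBB did not pass it. Among 4 retained myeloid markers, 2 were called lower, against 1.28% of all probes. They were the peroxidase MPO at -2.02 (limma adjusted p = 0.00107) and the receptor CSF3R at -1.58 (limma adjusted p = 0.0391). CD14 (-0.13) and CSF1R (-0.05) were not called. The MPO call held in 16 of 16 alternative settings, but that of CSF3R in only 6 of 16. Under spike-in scaling CSF3R was at -1.16 and not called. Mean control levels were 13.95 for MPO and 11.07 for CSF3R, both bright. Of 20 probes for proliferation genes, 17 were above 0, with a median of 0.12, and 0 were called. Of 16 probes for B-cell precursor markers, 13 were above 0, with a median of 0.18, and 0 were called without the block and 4 higher with it, against 1.36% of all probes called higher. The part of these in the values of the epigenetic regulators was not tested.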

How the data were processed

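Total RNA of 3 control and 3 knockdown samples was hybridised to 1-color Agilent arrays. The authors read spot intensities with Agilent Feature Extraction (version 10.7.1.1 in the headers). The deposited scanner output holds, per spot, a median intensity, a processed intensity and other values, namely flags, and was not normalized between arrays. Log2 values normalized by the authors, for 27869 probes, were used as an alternative.

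The vsn package was not at hand, so its model (an affine term per array, then an inverse hyperbolic sine, keeping the 0.9 quantile) was written anew and fitted to median spot intensity. The result correlated with the authors' log2 values at r of 0.99906 to 0.99967 per array, across probes. Outlier-flagged spots were dropped and spots of one probe averaged. A probe was retained if it exceeded 1.1 times the 0.95 quantile of the negative controls on at least 2 of 3 arrays of a group. The factor was applied to generalised log2 values, not to intensities. The filter left 27490 probes of 57176. No regulator probe among the 61 had a missing value. A RefSeq symbol was found for 75.4% of catalogue probes. Testing used limma 3.58.1 (R 4.3.3, lmFit and eBayes, two-sided), Benjamini-Hochberg adjusted over all retained probes. An exact permutation test of one probe cannot give p below 0.1 with 3 against 3. The scale understates changes of dim probes.

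Deviations from group means correlated at r = 0.43, 0.29 and 0.20 between arrays sharing a replicate number, so the numbers were taken to pair the samples. Arrays of different number correlated at up to 0.19, so only replicate 1 stood clearly apart. This pairing comes from the data, as the labels give only the number. The 39 genes and the other chromatin list were chosen with earlier results of these data known. Per-array values are given for regulators called with or without the block, for the 3 of lowest p in each class and for SMC1A. Those of other genes, such as EZH2, SMARCA4, CTCF, SIRT1, PHF19 and ASNS, were chosen after values were seen. Alternatives covered normalization, filter, test, probe averaging, slide row, replicate block and leaving out each array.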

Additional observations from a re-analysis of the deposited data

How the results depend on the processing

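The count of called epigenetic regulator probes, 0 without the block, was 2 with the replicate block (HDAC6 and DNMT3A), 1 with normexp and quantile normalization (HDAC6) and 1 with an intensity trend and robust prior (HDAC6), and 0 in each other alternative, including each fit that left out 1 array. The block changed no other call among the regulators. Over all 27490 probes, normexp and quantile normalization gave 522 calls and the intensity trend 542. For the other chromatin genes, the count of 1 became 2 with the replicate block, 2 with the intensity trend, 0 with slide row as a term and 0 with probes of one gene averaged, and it ran from 0 to 2 when one array was left out (0 without knockdown replicate 2 or 3, 2 without knockdown replicate 1). Over all probes the block gave 1041 calls, spike-in scaling 112, no filter on dim probes 224 and the slide row 227, against 478. Leaving out one array gave 191 (control replicate 2) to 553 (knockdown replicate 1) calls, with 205, 214, 258 and 282 without knockdown replicate 3, knockdown replicate 2, control replicate 3 and control replicate 1.

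Under spike-in scaling, whose shift over all probes was 0.25, 9 of the 28 regulator probes that turned positive lay above that shift. Among genes named by the rule on lowest p, the values of KDM5B (0.045), KMT2A (0.012), HDAC7 (0.10), BMI1 (0.035) and ASH1L (0.030) turned positive. The cause was not tested. Of 272 comparisons of a result with its alternative, 256 kept direction and side of the threshold. HDAC6 ran from 0.43 to 0.52 and DNMT3A from -0.58 to -0.35 when one array was left out. With slide row as a term their adjusted p were 0.379 and 0.875. Slide as a term was not run, as there is 1 slide. With 3 arrays in a group, precision is limited throughout.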
